A study of Mus musculus with 15 samples.

Results

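The genes described are 9 transient receptor potential (Trp) channel genes that report heat, cold and irritants or are studied beside those that do, namely Trpv1, Trpv2, Trpa1, Trpm2, Trpm3, Trpm7, Trpm8, Trpc1 and Trpc6. They were taken by symbol from the 54108 gene symbols of the deposited table, without a threshold on their values, and all 9 passed the filter of an average of 1 CPM or more over the 15 libraries (CPM, reads scaled to library size and not divided by gene length). Cutaneous sensory neurons came from C57BL/6J females, 8 to 12 weeks old, with 5 mice per group and 1 library of RNA per mouse. Wheat germ agglutinin bearing a green fluorophore was placed in the hairy hindpaw skin 2 days before surgery, and labeled cells were sorted from ganglia L2 to L6, about 3000 per mouse. SCI mice had a laminectomy at T10 and clip compression of the cord, sham mice the laminectomy without the clip, and both were taken 4 days later after gentamicin and saline. Naïve mice had no surgery and were housed in groups, whereas operated mice were caged singly, so housing and surgery cannot be told apart in comparisons with naïve mice.

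Trp channels are cation channels of the cell membrane built from subunits that assemble in fours of like or related members, and their opening lets sodium and calcium into the nerve ending. In sensory neurons Trpv1 opens to noxious heat, acid and capsaicin, Trpm3 to heat and pregnenolone sulfate, Trpm8 to cooling and menthol, and Trpa1 to reactive irritants such as mustard oil. Trpm2 responds to ADP-ribose, oxidative stress and warmth, Trpv2 to very high heat in expression systems, Trpm7 is a widely expressed channel fused to a kinase that carries magnesium and other divalent ions, and the Trpc channels act downstream of phospholipase C.

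Library depth here means the reads counted to genes, recovered from the deposited values. They are fewer than the total reads per sample that the paper states, and what set their number was not tested. Sham libraries were the deepest, at 2568656 to 7389487 reads (median 5815348), SCI libraries held 3000636 to 4385542 (median 3698926), and naïve libraries varied most, from 1321632 to 7465583 (median 2532675). Each read was worth 0.791 CPM in naïve 1, the shallowest library, and 0.141 in naïve 5, the deepest. The markers of the labelled cell type were present, since 5 of 5 nociceptor markers had a mean above 10 CPM and their summed level lay between 1960 and 3920 CPM in each library. Markers of other cells were present as well. Satellite glia markers summed to 1060 to 2810 CPM (5 of 5 above 10 CPM), Schwann cell markers to 947 to 2160 (5 of 5), fibroblast markers to 289 to 1760 with the highest value in naïve 4 (5 of 5), and mural cell markers to 376 to 744 (4 of 5). Markers of myelinated neurons summed to 337 to 695 CPM (3 of 4). Macrophage markers summed to 13.9 to 83.5 CPM and endothelial markers to 3.89 to 24.9 (0 of 8 and 0 of 5 above 10 CPM). The part of these cells in the levels below was not tested.

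All 9 channels were detected in every library, and Trpv1 was the most abundant in each of the 3 groups. By mean CPM over the 15 libraries Trpv1 (367, rank 245 among all symbols) was followed by Trpm8 (240, rank 708), Trpm3 (181, rank 1327), Trpm7 (132, rank 2231), Trpv2 (111, rank 2936), Trpa1 (107, rank 3086), Trpm2 (83.4, rank 4192), Trpc1 (56.0, rank 5967) and Trpc6 (17.7, rank 10227). These CPM are not divided by gene length, so their order is one of reads and not of transcripts. The reads behind them numbered 19902 for Trpv1 and 1196 for Trpc6 over all libraries.

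Per kilobase of exon Trpv1, Trpm8, Trpa1 and Trpv2 stood above the other channels. Trpv1 had 99.8 ± 19.6 CPM per kb (SD over all libraries, n = 15), Trpm8 50.7 ± 8.02, Trpa1 25.1 ± 3.57, Trpv2 24.7 ± 2.23, Trpm7 11.7 ± 2.07, Trpm3 7.42 ± 1.35, Trpc1 6.97 ± 0.808, Trpm2 6.69 ± 1.26 and Trpc6 3.5 ± 1.61. The lowest library of Trpv1, with 78.3 CPM per kb, lay above the highest of Trpm8, with 68.5. The ranges of Trpm8 and Trpa1, and of Trpv2 and Trpm7, did not overlap either. The ranges of the other neighbours overlapped. Trpm7 nonetheless exceeded Trpm3, and Trpm2 exceeded Trpc6, in 15 of 15 libraries, whereas Trpa1 exceeded Trpv2 in 7 of 15, and Trpm3 exceeded Trpc1 and Trpc1 exceeded Trpm2 in 9 of 15 each. Divided by the longest coding length instead, Trpm3 moved from the sixth place to the fourth, while Trpv1 and Trpm8 stayed first and second. Trpm3 is the gene in which length matters most, with 24437 exon bases in 24 annotated transcripts against 12305 in the longest transcript.

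The channel genes lie on 6 chromosomes of GRCm38 in the GENCODE annotation. Trpv1 (ENSMUSG00000005952) spans chromosome 11 from 73234292 to 73261242 and Trpv2 (ENSMUSG00000018507) the same chromosome from 62574486 to 62600515. Trpa1 (ENSMUSG00000032769) and Trpm8 (ENSMUSG00000036251) are on chromosome 1, from 14872648 to 14918862 and from 88277661 to 88389293. Trpm2 (ENSMUSG00000009292) is on chromosome 10 from 77907722 to 77970563, Trpm3 (ENSMUSG00000052387) on chromosome 19 from 22139046 to 22995410 and Trpm7 (ENSMUSG00000027365) on chromosome 2 from 126791565 to 126876230. Trpc1 (ENSMUSG00000032839) and Trpc6 (ENSMUSG00000031997) are both on chromosome 9, from 95705082 to 95750375 and from 8544142 to 8680741. Trpm3 hosts the microRNA gene Mir204 in its transcribed strand and overlaps the lincRNA C330002G04Rik on the other strand, Trpm8 overlaps the antisense gene 4930453O03Rik, and Trpc6 overlaps the lincRNA Gm32014. The library kit keeps strand, but the strand setting of the counting is not given in the sources used here, so reads of these partners may not be separated.

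The promoters of the channels fell apart in their CpG content. RefSeq windows from 250 bases before to 50 bases after a transcript start (GRCm38.p6) were found for 8 of the 9 channels, all but Trpa1, and Trpv2 and Trpm3 have 3 and 2 such windows. Trpm8 holds 1 CpG in its window, Trpv1 4 and Trpv2 2, 2 and 7, against 15 in Trpm2, 17 in Trpc6, 21 and 10 in Trpm3, 22 in Trpc1 and 35 in Trpm7. Over 32851 windows of mouse genes the median was 7, and 5.43% held fewer CpG than Trpm8 while 93.0% held fewer than Trpm7. The letters TATAAA, on either strand, occur in the windows of Trpm8 and Trpm2 and in 1 of the 3 of Trpv2, and in 13.6% of all windows. The windows of Trpv1, Trpm8 and Trpm7 are printed because the first pair and Trpm7 took opposite courses across libraries, described further on. They read 5′ to 3′ along the gene's own strand with each CpG in capitals, and lie at chr11:73233899-73234198 (plus strand), chr1:88306485-88306784 (plus) and chr2:126876212-126876511 (minus).
Trpv1: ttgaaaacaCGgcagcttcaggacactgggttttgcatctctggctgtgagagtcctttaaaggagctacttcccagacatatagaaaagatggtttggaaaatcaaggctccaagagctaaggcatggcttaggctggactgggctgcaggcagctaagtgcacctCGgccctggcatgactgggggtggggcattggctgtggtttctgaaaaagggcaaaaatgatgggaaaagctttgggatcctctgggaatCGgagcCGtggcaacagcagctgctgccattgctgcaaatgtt
Trpm8: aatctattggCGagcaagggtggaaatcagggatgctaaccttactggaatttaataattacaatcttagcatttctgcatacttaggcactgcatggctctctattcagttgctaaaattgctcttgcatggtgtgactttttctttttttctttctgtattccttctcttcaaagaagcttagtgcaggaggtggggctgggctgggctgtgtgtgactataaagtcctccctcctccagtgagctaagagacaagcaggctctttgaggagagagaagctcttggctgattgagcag
Trpm7: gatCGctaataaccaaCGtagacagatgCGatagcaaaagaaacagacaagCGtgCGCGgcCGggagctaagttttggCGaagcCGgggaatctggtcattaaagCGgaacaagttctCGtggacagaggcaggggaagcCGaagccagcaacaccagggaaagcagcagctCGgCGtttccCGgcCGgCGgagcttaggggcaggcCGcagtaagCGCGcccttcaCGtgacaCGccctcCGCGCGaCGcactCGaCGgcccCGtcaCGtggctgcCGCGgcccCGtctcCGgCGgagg

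**Figure D1:**
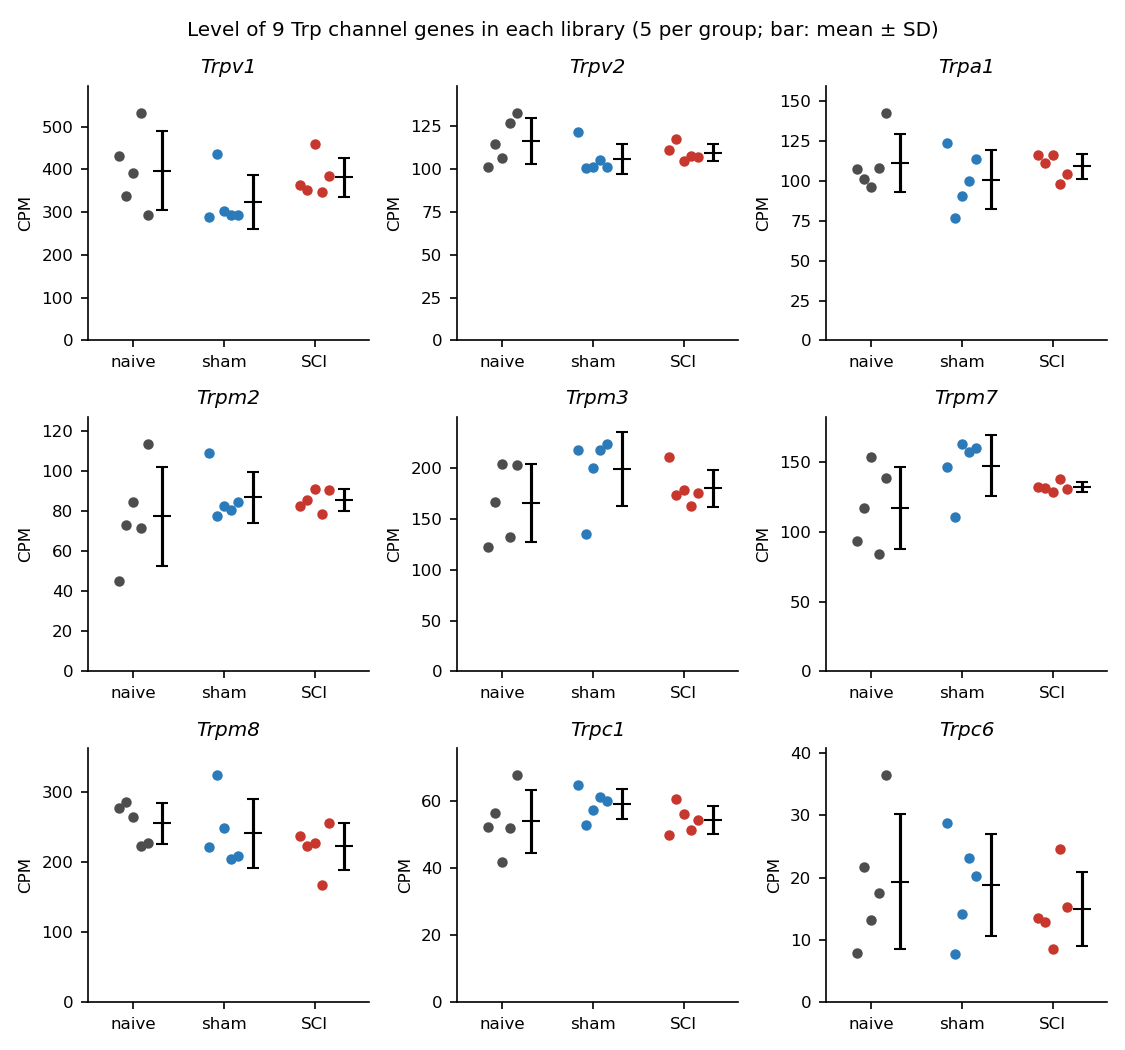
Level of each of the 9 channel genes in CPM (vertical axes, starting at 0) in the 5 naïve, 5 sham and 5 SCI libraries, with 1 point per library and the mean ± SD beside the points. The groups overlap in every gene, and the points of SCI mice lie closest together in Trpm7, from 129 to 138 CPM.

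No channel separated the 3 groups. For Trpv1, the capsaicin receptor, the naïve libraries had 432, 337, 392, 531 and 293 CPM, the sham libraries 288, 436, 304, 294 and 294, and the SCI libraries 363, 352, 460, 348 and 385. In sham mice 4 libraries sat between 288 and 304, a span that also held naïve 5 at 293. The remaining 1, sham 2, was at 436, and only through it did the sham range reach into that of SCI mice. Group means were 397 ± 91.7, 323 ± 63.2 and 382 ± 46.0 CPM (SD, n = 5 each). The log2 difference on the log2(CPM + 1) scale came to -0.035 ± 0.147 (SE) for SCI minus naïve, 0.25 ± 0.147 for SCI minus sham and -0.285 ± 0.147 for sham minus naïve, with adjusted p of 0.968, 0.897 and 0.312 (limma, Benjamini-Hochberg over 16000 genes) and exact permutation p of 0.833, 0.119 and 0.175. With sham 2 left out the difference between SCI and sham was 0.363. In bulk RNA fewer cells of a type and less RNA per cell cannot be told apart.

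For Trpm8, the cold and menthol receptor, the naïve libraries had 278, 286, 264, 223 and 227 CPM, the sham libraries 221, 324, 249, 205 and 209, and the SCI libraries 237, 223, 228, 168 and 256. SCI mice held the lowest library and the lowest mean, 222 ± 33.0 CPM (SD, n = 5), against 256 ± 28.9 in naïve and 242 ± 49.2 in sham mice, and the groups overlapped. The differences were -0.206 ± 0.131 (SE) from naïve and -0.111 ± 0.131 from sham mice (limma, adjusted p = 0.898 and 0.899, exact permutation p = 0.135 and 0.532). The latter came to 0 without sham 2. For Trpa1, the irritant receptor, naïve libraries had 108, 101, 96.3, 108 and 142 CPM, sham libraries 123, 76.4, 90.3, 99.6 and 114, and SCI libraries 116, 111, 116, 97.9 and 104. The highest naïve value came from naïve 5 and the lowest sham value from sham 2, and the SCI libraries lay inside the range of the others. Its differences were -0.015 ± 0.124 (SE), 0.132 ± 0.124 and -0.147 ± 0.124 in the same order as for Trpv1 (exact permutation p = 0.921, 0.357 and 0.381). Without sham 2 the latter pair shrank to 0.039 and -0.054.

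For Trpm3, the heat and steroid receptor, naïve libraries had 122, 167, 204, 132 and 203 CPM, sham libraries 218, 135, 200, 217 and 223, and SCI libraries 210, 173, 178, 162 and 176. Trpm7, the channel kinase, had 93.3, 117, 154, 84.1 and 139 CPM in naïve, 147, 111, 163, 157 and 161 in sham, and 132, 131, 129, 138 and 131 in SCI libraries. In both genes 4 of the 5 sham libraries were near or above the highest naïve libraries and sham 2 was well below them. Sham exceeded naïve mice by 0.271 ± 0.154 (SE) in Trpm3 and by 0.351 ± 0.143 in Trpm7 on the log2 scale. The p of Trpm7 was the smallest of the 27 differences tested with limma (unadjusted p = 0.0246, adjusted p = 0.300, exact permutation p = 0.103). For SCI against sham mice they were -0.125 ± 0.154 in Trpm3 and -0.145 ± 0.143 in Trpm7 (limma, adjusted p = 0.903 and 0.897), and without sham 2 they were -0.257 and -0.245.

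In the remaining channels the groups overlapped as well. Trpv2 stayed within 101 and 133 CPM in naïve libraries, within 100.4 and 121 in sham libraries and within 105 and 118 in SCI libraries, and its limma differences were -0.08, 0.05 and -0.129 (SE 0.087), with -0.268 in DESeq2 and -0.263 in edgeR for sham against naïve (unadjusted p = 0.00124 and 0.00434, edgeR adjusted p = 0.441). Trpc1, a channel subunit also tied to store-operated and mechanical responses, ranged from 41.8 to 67.8, 52.9 to 64.9 and 50.1 to 60.6 CPM. Trpm2, the oxidative stress sensor, had 45.1, 73.0, 84.8, 71.6 and 114 CPM in naïve, 109, 77.7, 82.8, 80.4 and 84.7 in sham, and 82.6, 85.4, 91.0, 78.5 and 90.7 in SCI libraries. Naïve 1 was the lowest and naïve 5 the highest of all 15 libraries in Trpm2, and the other 13 lay between 71.6 and 109. Its differences were 0.199 ± 0.169 (SE), -0.013 ± 0.169 and 0.212 ± 0.169, and without naïve 1 those from naïve mice came to 0.021 for SCI and 0.035 for sham, while without naïve 5 they came to 0.35 and 0.363. Trpc6, opened by diacylglycerol, went from 7.91 to 36.4 CPM (naïve), from 7.72 to 28.7 (sham) and from 8.57 to 24.5 (SCI), with an SE of 0.366 on its log2 differences of -0.261, -0.265 and 0.003. For SCI against naïve its difference was -0.519 without naïve 1, -0.001 without naïve 5 and -0.64 with library depth as a term (limma, unadjusted p = 0.0193), and for SCI against sham it was -0.531 without sham 2 and -0.089 without sham 1. Its within-group SD was 3.79 times the SD that counting alone gives, against 1.53 for Trpc1 and 6.04 for Trpv1.

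By limma 0 of the 9 channels passed an adjusted p of 0.05 in any comparison, and the same held for edgeR and DESeq2 run on the recovered reads. Across all genes the limma share was 0% in each of the 3 comparisons, and the DESeq2 share was 0% for SCI against naïve, 0.025% (4 genes) for SCI against sham and 1.46% (233 genes, all lower) for sham against naïve. At an unadjusted p under 0.05 limma took 0 channels for SCI against naïve (4.53% of all genes), 0 for SCI against sham (3.89%) and 1, Trpm7, for sham against naïve (16.6%). For sham against naïve DESeq2 and edgeR each took 3 channels at an unadjusted p under 0.05 (11.4% and 10.7% of all genes). DESeq2 gave no adjusted p for 7 of the 9 there, so these could not be called, and among them was Trpv2 with an unadjusted p of 0.00124. The adjusted p was 0.0658 for Trpv1 and 0.281 for Trpm8. No channel had groups that did not overlap, which occurred in 0.463%, 1.51% and 0.644% of all genes in the 3 comparisons. Without naïve 5 limma called 1752 genes (10.9%) between sham and naïve mice and none of them was a channel, while 5 of the 9 channels had an unadjusted p under 0.05 against 35.3% of all genes.

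Set against the movement of all genes, 6 of the 9 channels lay below the median gene in sham against naïve mice and 3 above it, as values of which none passed the adjusted test. The median difference of all tested genes was 0.081 for SCI minus naïve, -0.0695 for SCI minus sham and 0.175 for sham minus naïve, and rescaling by median ratios brought it to 0.012, -0.00229 and 0.042. The medians of the 9 channels were -0.015, -0.111 and 0.003, with 3, 4 and 3 of them above the median of all genes. Relative to that median, sham against naïve gave -0.46 for Trpv1, -0.322 for Trpa1, -0.304 for Trpv2, -0.27 for Trpm8, -0.172 for Trpc6 and -0.028 for Trpc1, and 0.176 for Trpm7, 0.096 for Trpm3 and 0.037 for Trpm2. Markers of nociceptors and glia lay low with these 6 in the same comparison. The 5 nociceptor markers were all below 0 with a median of -0.421, the 5 satellite glia markers likewise at -0.449 and the 5 Schwann cell markers at -0.36. DESeq2 called 3 of each 5 and 1.46% of all genes, while limma called 0. That 1.46% counts genes without an adjusted p among the uncalled. Trpm8, averaging 240 CPM, had an adjusted p and Trpm3, at 181 CPM, had none, so 1.46% is no like share for abundant genes. The 8 macrophage markers were all above 0, with a median of 0.346. The part of these cells was not tested. After rescaling the differences were -0.431 ± 0.20 (SE) for Trpv1, -0.274 for Trpv2 and -0.291 for Trpa1 (limma, unadjusted p = 0.0455, 0.00396 and 0.0122), and none passed after adjustment. In that fit 2065 of all 16000 genes had an unadjusted p under 0.05. Trpc1 and Trpc6 turned sign with such a scaling in at least 1 comparison, and Trpm2 did so between SCI and sham.

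**Figure D2:**
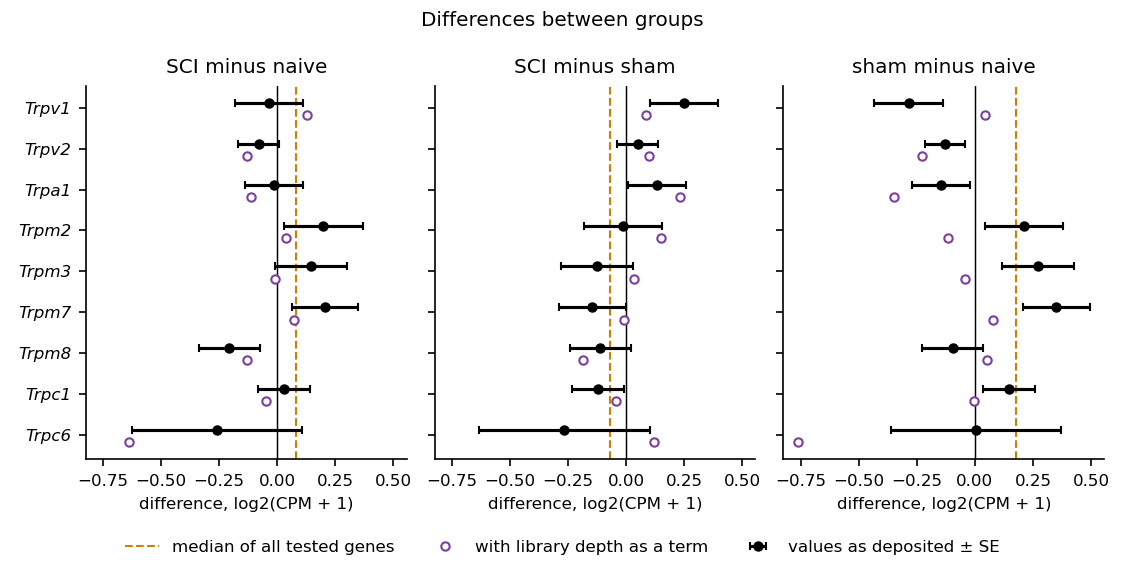
Difference of each channel gene between groups on the log2(CPM + 1) scale (horizontal axes) in the 3 comparisons, with filled points and bars for the limma estimate ± SE, open points for the estimate with library depth as a term, and a dashed line at the median of all tested genes (0.081, -0.0695 and 0.175). For sham against naïve the Trpv1 difference goes from -0.285 to 0.045 with the depth term, and that of Trpa1 from -0.147 to -0.346.

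The clearest pattern in these genes ran with the depth of the library, which goes together with group in part. Trpv1 was lower the deeper the library, with Pearson r of -0.899 and Spearman rho of -0.911 against log2 reads over 15 libraries (permutation p = 1e-05, the smallest that 100000 permutations can give, and 2e-05). Trpm3 (r = 0.831, rho = 0.7, permutation p = 0.00016 and 0.005), Trpm7 (r = 0.824, rho = 0.721, permutation p = 0.00024 and 0.003) and Trpm2 (r = 0.760, rho = 0.568, permutation p = 0.00045 and 0.029) went the other way. Trpc1 (r = 0.689, rho = 0.782, permutation p = 0.0038 and 0.00092) and Trpc6 (r = 0.657, rho = 0.682, permutation p = 0.0074 and 0.0063) were likewise higher in deeper libraries. Trpm8 had r of -0.450 and rho of -0.618 (permutation p = 0.093 and 0.017), whereas Trpa1 (r = 0.355) and Trpv2 (r = 0.191) had permutation p of 0.19 and 0.49. These are 9 relations with unadjusted p.

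The relation did not rest on the 2 shallowest libraries. Without naïve 1 and naïve 4, the farthest from the median depth, r was -0.886 for Trpv1, 0.642 for Trpm3, 0.578 for Trpm7, 0.578 for Trpm2, 0.804 for Trpc1, 0.741 for Trpc6, -0.551 for Trpm8, 0.593 for Trpa1 and 0.483 for Trpv2. After each group's own mean was taken off both measures, r was -0.895 for Trpv1, 0.795 for Trpm3, 0.753 for Trpm7, 0.756 for Trpm2, 0.632 for Trpc1, 0.800 for Trpc6, -0.458 for Trpm8, 0.662 for Trpa1 and 0.574 for Trpv2. The 5 SCI libraries, whose depth varied least, are too few for an r of their own, and in them Trpa1 and Trpm3 were not higher in the deeper libraries. Trpm2 went the other way there. It had 91.0 and 90.7 CPM in SCI 3 and SCI 5, the shallowest SCI libraries, and 78.5 to 85.4 in the deeper ones. A link with depth is common in these libraries, since the median size of r over all tested genes was 0.607 and 79.8% of genes had a positive r. Trpv1 lay toward the edge of that spread, with 6.29% of genes further from 0. That share was 14.5% for Trpm3, 15.6% for Trpm7, 25.9% for Trpm2, 37.8% for Trpc1 and 42.6% for Trpc6. It was 68.5% for Trpm8, 77.0% for Trpa1 and 89.0% for Trpv2. Depth and group go together in part, because 4 of the 5 sham libraries were deeper than every SCI library. With depth as a term in the fit, the difference of Trpv1 between SCI and sham went from 0.25 to 0.084 and that of Trpm7 from -0.145 to -0.008, whereas that of Trpa1 went from 0.132 to 0.232 (limma, adjusted p = 0.996 or more for each of the 27 differences in that fit). At an unadjusted p under 0.05 that fit took 1 channel for SCI against naïve (Trpc6) and 1 for SCI against sham (Trpa1). It took 3 for sham against naïve (Trpa1, Trpv2 and Trpc6). Of all 16000 genes it took 749, 527 and 319 in the same order.

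**Figure D3:**
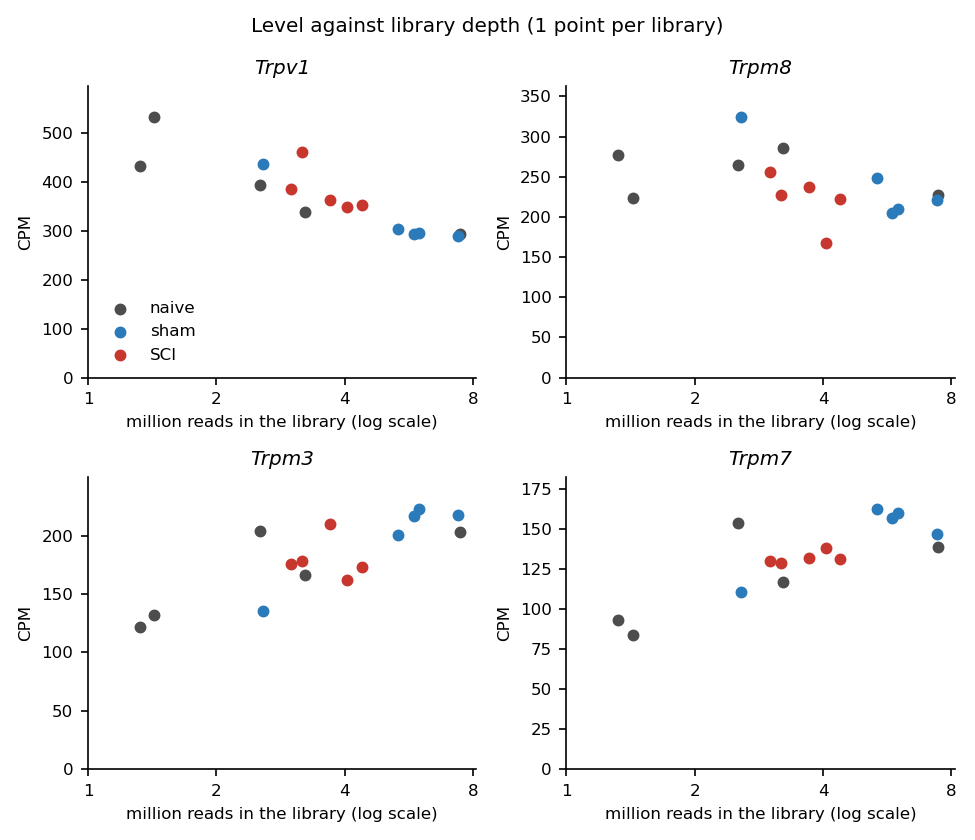
Level of Trpv1, Trpm8, Trpm3 and Trpm7 in CPM (vertical axes, starting at 0) against the reads of the library counted to genes (horizontal axes, log scale). There is 1 point per library, colored by group. Trpv1 goes from 531 CPM in naïve 4 to 288 in sham 1, while Trpm7 goes from 84.1 CPM in naïve 4 to 163 in sham 3.

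Over the 9 channels the order of the signed r ran with the length of the gene's exons, though Trpa1 and Trpv2, which are short, had a positive r like the long genes. The 4 channels with less than 5000 exon bases, Trpv1 (3681), Trpa1 (4263), Trpv2 (4485) and Trpm8 (4732), had the 4 lowest r, and the 5 with more, from Trpc6 (5066) to Trpm3 (24437), had the 5 highest. That split did not hold in the other 2 forms of r given above. Without naïve 1 and naïve 4, Trpa1 (0.593) lay above Trpm7 and Trpm2 (0.578 each). With the group means taken off, Trpa1 (0.662) lay above Trpc1 (0.632). The rank correlation of r with exon length was 0.917 over the 9 channels and 0.317 over 15812 tested genes with an annotated length. This is a description over genes that share the same libraries. In the whole set the median r was 0.429 for 9449 genes under 5000 exon bases and 0.644 for 6363 longer ones, so all 4 short channels lay below the median short gene. The CpG count of the promoter ordered the channels much the same way, with a rank correlation of 0.810 over 8 channels, but it did so hardly at all over 11592 genes (0.040). The windows printed above were picked because their genes took opposite courses, so their CpG content says nothing further about a link. Trpv2, also CpG-poor, had a positive r of 0.191, and 68.5% of genes had an r further from 0 than Trpm8 (-0.450). Over all genes the count of CpG said little about the course. The part of exon length in the relation was not tested.

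**Figure D4:**
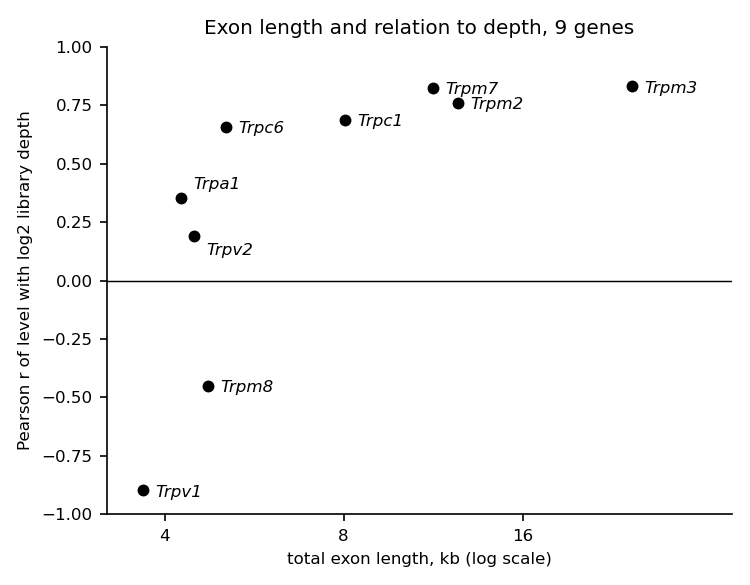
Pearson r of each channel's level with log2 library depth over 15 libraries (vertical axis) against its total exon length in kb (horizontal axis, log scale), with 1 point per gene. The 4 genes under 5000 bases lie between -0.899 and 0.355 and the 5 longer ones between 0.657 and 0.831.

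Because a ratio of 2 genes within a library is free of the scaling, the 36 pairs of channels were also compared as ratios, in 108 exact permutation tests. The groups did not overlap in 2 of them, both noticed after the values were seen. The ratio of Trpv1 to Trpm8 was 1.53, 1.58, 2.02, 2.07 and 1.5 in SCI libraries, 1.30, 1.35, 1.22, 1.44 and 1.41 in sham libraries, and 1.56, 1.18, 1.48, 2.38 and 1.29 in naïve libraries. Every SCI mouse thus had more Trpv1 per Trpm8 than every sham mouse, while the naïve mice spread across both groups. The log2 ratios differed by 0.362 between SCI and sham mice (exact permutation p = 0.00794, the smallest that 5 against 5 can give, unadjusted over the 108). With each library of both groups left out in turn the difference lay between 0.296 and 0.412, and with depth as a term it was 0.271. Over all genes 2.48% of ratios to Trpm8 did not overlap between these groups, and 1 of the 36 pairs of channels did not. The 36 include pairs without Trpm8, so the 2 shares are not alike. As the pair was picked after the values were seen, the ratio is given only as a description of these 2 genes. Sham 2, the library that stood apart in Trpv1, was within the sham range of the ratio, at 1.35, since it was high in both genes.

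The other pair was Trpv2 over Trpc1 between sham and naïve mice. The ratio was 1.87, 1.90, 1.76, 1.72 and 1.69 in sham and 1.94, 2.03, 2.54, 2.45 and 1.96 in naïve libraries, with SCI libraries from 1.86 to 2.21 across the gap. Its log2 difference was -0.28 (exact permutation p = 0.00794, unadjusted), between -0.321 and -0.223 without each library in turn and -0.226 with the depth term, and 0.563% of the ratios of all genes to Trpc1 did not overlap. For SCI against naïve mice 0 of the 36 pairs were free of overlap. The share over pairs of all genes was not computed, so these counts are not read as a trait of the channels.

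**Figure D5:**
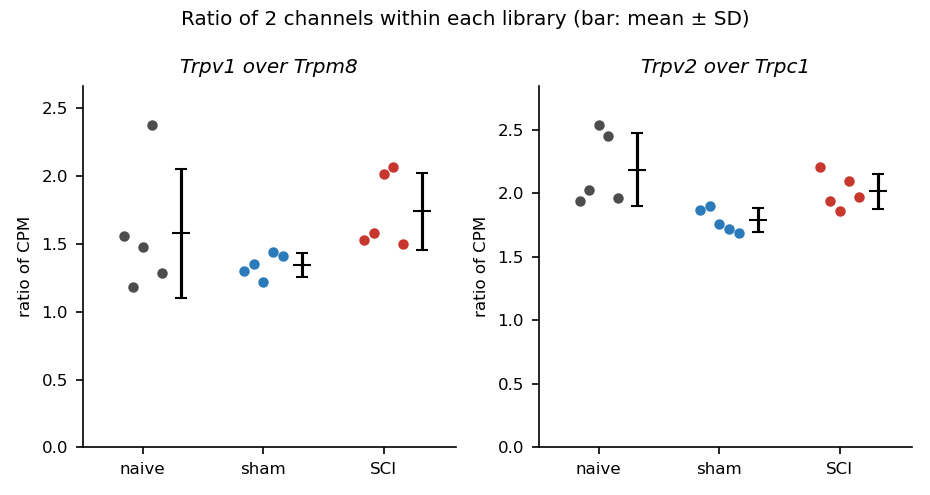
Ratio of Trpv1 to Trpm8 and of Trpv2 to Trpc1 in CPM (vertical axes, starting at 0) in each library of the 3 groups, with the mean ± SD beside the points. The Trpv1 to Trpm8 ratio is at most 1.44 in sham and at least 1.5 in SCI libraries, and naïve libraries run from 1.18 to 2.38.

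Read as shares of their summed reads, most channels varied least between SCI mice, Trpv2 being an exception with a share SD of 0.692 points against 0.606 in sham mice. Trpv1 took 27.6% to 33.5% of the reads of the 9 channels in SCI, 21.8% to 33.0% in sham and 21.7% to 39.4% in naïve libraries. Trpm8 took 14.3% to 19.4%, 16.5% to 24.5% and 16.5% to 22.4% in the same order, and Trpm3 13% to 16%, 10.2% to 17.6% and 9.82% to 15%. The exact binomial 95% interval of the Trpv1 share in the shallowest library was 32.5% to 37.3%, which covers counting error only. SCI libraries, which also had the narrowest range of depth, had the smallest SD in CPM of the 3 groups in 8 of the 9 channels, all but Trpm8, as for instance 3.55 CPM in Trpm7 against 29.5 for naïve and 21.6 for sham mice. The share of all genes with their smallest SD in SCI libraries was not computed, so the narrow spread is not read as a trait of the channels.

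Of 19 other Trp genes 11 reached the average of 1 CPM, and 0 of them passed after adjustment with limma, edgeR or DESeq2 in any comparison. At an unadjusted p under 0.05 limma took 1, 2 and 1 of the 11 in the 3 comparisons, against 4.53%, 3.89% and 16.6% of all genes. Trpc4, a phospholipase-coupled channel, had 17.9, 24.6 and 15.8 CPM in naïve, sham and SCI mice, a difference of -0.586 between SCI and sham (limma, unadjusted p = 0.00739, adjusted p = 0.897) and of 0.437 between sham and naïve (unadjusted p = 0.0372). Trpv4, the osmotic and warmth channel, was scarce at 3.59, 5.86 and 3.31 CPM, with a difference of -0.698 between SCI and sham (limma, unadjusted p = 0.0307). Trpv6, an epithelial calcium channel, was at 2.75, 3.91 and 4.22 CPM. Among the most abundant ones were Mcoln1, a lysosomal channel, with 135, 130 and 129 CPM, Pkd2, the polycystin of cilia, with 105, 128 and 116, and Trpm4, a calcium-activated sodium channel, with 84.8, 84.5 and 82.5. Trpv5 and Trpc2 had 0 reads in every library.

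Of 23 genes for regulators and partners of Trp channels 22 were tested, and limma and edgeR called 0 in any comparison. Between sham and naïve mice DESeq2 called 1.46% of all genes, a share that counts genes without an adjusted p and is no like share for abundant ones. It called 6 of the 22 there, all lower in sham, and limma took 8 of the 22 at an unadjusted p under 0.05, where it took 16.6% of all genes. Those described here are Pirt, a membrane protein that binds Trpv1 and Trpm8 (783 ± 280 CPM for naïve, 524 ± 160 for sham and 641 ± 82.0 for SCI), Plcb3, a phospholipase C (576 ± 141, 407 ± 31.3 and 464 ± 30.1), Gnaq, its G protein (383 ± 58.8, 309 ± 28.5 and 351 ± 25.2), Gnb1, a G protein beta subunit (442 ± 128, 316 ± 79.5 and 371 ± 22.4), and Prkca, a protein kinase C (426 ± 78.5, 360 ± 23.8 and 387 ± 19.7, SD, n = 5 each). The DESeq2 adjusted p was 0.0486 for each of these, and limma gave them an adjusted p of 0.300 or 0.301. Like Trpv1, these genes had their lowest group mean in sham mice and their highest in naïve mice. Their relation to library depth was not tested. The median difference of the 22 between sham and naïve was -0.123, against 0.175 over all genes, and the nociceptor and glial markers named above stood lower still.

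For each channel the genes most alike in pattern were those with the highest correlation of residuals after group and depth, over 15 libraries and among genes averaging 10 CPM or more. They were Tgfb1i1 for Trpv1 (r = 0.917), Cog1 for Trpv2 (0.918), Slc25a24 for Trpa1 (0.896), Nol4l for Trpm2 (0.939), Elk1 for Trpm3 (0.923), Cux1 for Trpm7 (0.959), Gpr26 for Trpm8 (0.900), AI854703 for Trpc1 (0.954) and Gm16364 for Trpc6 (0.907). For Trpm7 the second and the third, Plxnb2 and Kmt5b, were nearly as close (0.946 and 0.945). Among the channels themselves the residuals of Trpv1 went with those of Trpm2 (0.768) and those of Trpm3 with Trpm7 (0.706), while Trpm7 ran against Trpc1 (-0.798) and Trpv2 (-0.741). These are descriptions over libraries that share depth and preparation.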

How the data were processed

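Polyadenylated RNA of sorted neurons was sequenced from 1 end over 75 nt. The authors aligned reads with HISAT2 to mm10 and counted them with HTSeq, and the deposited signal values, headed RPKM, are whole reads times 1 step per library (0 values outside a tolerance of 1e-06), not divided by length, so they are called CPM here and reads were recovered from them. The annotation and strand setting of that counting are not given in the sources used here. Lines with a number for a name (27, at most 0.21% of reads) were left out, and repeats of a symbol (97) were reduced to 1.

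The 16000 genes averaging 1 CPM or more were tested on log2(CPM + 1) with limma 3.58.1 in R 4.3.3, 3 groups in 1 fit, with Benjamini-Hochberg adjustment in each comparison at 0.05. Two-sided exact permutation tests took all 252 splits of 5 against 5, with a smallest p of 0.00794. Alternatives included edgeR 4.0.16 and DESeq2 1.42.0 on recovered reads, other pseudocounts and filters, rescaling, a depth term, left-out libraries and the replicate number as a block. The fits were tested on simulated data. All 9 channels, the other Trp genes and regulators called by any tool, and of each list the 4 most abundant and the 4 of smallest p are named, except 2 genes that are not reported here. Members and lists were chosen with earlier results of these data known. Nothing says that replicates differ in more than the mouse, and p-values measure the spread between the mice of this study. Promoter windows are from RefSeq, and lengths are from GENCODE M21.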

Additional observations from a re-analysis of the deposited data

Results flagged for a closer look

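In 5 of 33 sets of 5 libraries (the 9 channels and 2 ratios in 3 groups) 1 library stood apart from the rest, with a gap over 0.71 of the range. Chance gives about 1 in 20 for a single set, but these sets share the same 15 libraries and the ratios reuse the channels. The share of all genes flagged by this rule was not computed, so the count is not read as a trait of the channels. Sham 2 had 436 CPM of Trpv1 against 288 to 304 in the other sham libraries, and 135 CPM of Trpm3 against 200.2 to 223. It is the shallowest sham library. Sham 1, the deepest sham library, had 121 CPM of Trpv2 against 100.4 to 106 and 109 CPM of Trpm2 against 77.7 to 84.7. Naïve 5, the deepest of all, had 142 CPM of Trpa1 against 96.3 to 108 in the other naïve libraries. The cause was not tested.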

How the results depend on the processing

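Under each alternative 0 of the 9 channels passed, with a smallest adjusted p of 0.0651 where one was given (DESeq2 gave none to 7 channels for sham against naïve), and 11 of 27 differences kept 1 sign under all 27 alternatives, while 43 of 729 values turned. Removing values beyond 50% of the group mean gave 44 genes for SCI against naïve, 98 for SCI against sham and 642 for sham against naïve, DESeq2 gave 4 and 233 in the latter pair, and leaving out a library gave 0 to 1752 for sham against naïve (1752 without naïve 5). The other alternatives gave 0 genes. Values that turned sign follow, and their cause was not tested. For SCI against naïve Trpv1 was 0.129 with the depth term and 0.165 without the 2 shallowest naïve libraries, which also gave -0.055 for Trpm2, -0.087 for Trpm3 and -0.038 for Trpm7. Trpm3 was -0.009 with the depth term, and Trpc1 was -0.044 rescaled, -0.035 in edgeR, -0.055 in DESeq2 and -0.047 with the depth term. For SCI against sham Trpm2 was 0.058 rescaled, 0.058 in edgeR, 0.052 in DESeq2 and 0.152 with the depth term, which also gave 0.033 for Trpm3 and 0.121 for Trpc6. For sham against naïve the depth term gave 0.045 for Trpv1, -0.114 for Trpm2, -0.042 for Trpm3, 0.054 for Trpm8, -0.005 for Trpc1 and -0.761 for Trpc6. Trpc1 was -0.007 in DESeq2, and Trpc6 was -0.001 at a pseudocount of 5, -0.133 rescaled, -0.220 in edgeR, -0.191 in DESeq2 and -0.332 without the 2 shallowest naïve libraries, which gave -0.042 for Trpm2. With a library left out, Trpv1 ran from -0.136 to 0.077, Trpa1 from -0.063 to 0.077 and Trpc1 from -0.059 to 0.113 for SCI against naïve, Trpm2 from -0.051 to 0.071 and Trpm8 from -0.165 to 0 for SCI against sham, and Trpc6 from -0.254 to 0.270 for sham against naïve. The replicate number shared nothing but a number (correlations from -0.221 to 0.219), and a fit with it as a block called 0 genes and 0 channels. By coding length Trpm3 per kb stood above Trpa1. In the shallowest library 1 read is 0.791 CPM.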
